A study of Mus musculus with 4 samples.

Results

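The 10 genes described here encode the glucose transporter Slc2a1 (GLUT1) and 9 enzyme subunits of glycolysis, namely Hk1, Hk2, Pfkp, Aldoa, Tpi1, Pgk1, Pgam1, Eno1 and Ldha. They were chosen by name, and every array probe that carries one of these names was used, which gave 26 probes of 56605 on the array, for 10 of 36693 named genes. The arrays measured RNA from mouse CD4+ T cells. WT naive T cells and Nr4a-TKO naive T cells (CD4+, CD25low, CD44low, CD62L-high and Foxp3-) had been sorted from spleen and lymph nodes, and WT iTreg 3 h and Nr4a-TKO iTreg 3 h cells were such cells after 3 h on plate-coated anti-CD3 (2 μg/ml) and anti-CD28 (0.5 μg/ml) with IL-2 (10 ng/ml), TGF-β1 (given as 0.2 or 0.5 ng/ml) and antibodies that block IFN-γ and IL-4. Nr4a-TKO cells lack Nr4a1, Nr4a2 and Nr4a3, nuclear receptors that T cell receptor signals induce, through floxed Nr4a1 and Nr4a2 alleles and a germline Nr4a3 deletion. Per the study's methods, the Nr4a-TKO cells came from mixed bone marrow chimeras in irradiated Rag2-/- hosts that also received WT marrow. The WT cells came from chimeras made with WT marrow, so whether the chimera was mixed differs along with genotype. For naive T cells from these chimeras the methods list no CD25 gate. The promoter that drives the Cre is not given in the sources used here. The methods give C57BL/6J mice of both sexes, 6 to 8 weeks old, as the animals of the study, with sorting 6 weeks after the marrow was transferred; which animals lie behind each array is not given in the labels. There was 1 array in each of the 4 groups, so no difference between groups could be tested, and each is given as a description of those arrays.

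Glycolysis splits glucose into pyruvate. Slc2a1 carries glucose across the plasma membrane, and hexokinases (Hk1, Hk2) trap it as glucose 6-phosphate. Phosphofructokinase, of which Pfkp is the platelet-type subunit, commits the sugar to the pathway. Aldolase (Aldoa) and triosephosphate isomerase (Tpi1) turn it into triose phosphates. Past the step of Gapdh, which is not a member, Pgk1, Pgam1 and Eno1 lead on to phosphoenolpyruvate, with Pgk1 making ATP. Lactate dehydrogenase A (Ldha) then reduces pyruvate to lactate and restores NAD+. Resting T cells are known to rely largely on oxidation of pyruvate in mitochondria, and T cells triggered through their receptor are known to take up glucose and ferment it even with oxygen present.

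The data showed a mixed set of responses within 3 h. Of the 10 members, 7 were brighter on the WT iTreg 3 h array than on the WT naive T array, and the same count was found between the 2 Nr4a-TKO arrays. The median change of all genes was close to zero, -0.05 in WT and -0.02 in Nr4a-TKO, so many genes were brighter by this measure. Hk2 came up from below the detection limit, Pgam1 and Pgk1 followed, and Aldoa, Ldha, Pfkp and Slc2a1 were 1.68- to 2.08-fold higher in WT. Tpi1 lay near its naive level, and Eno1 and Hk1 lay lower at 3 h. By its brightest probe, no member that could be compared differed by more than 2-fold between the arrays labelled Nr4a-TKO and WT, at either time. Hk2 could not be compared in naive T cells. Few genes passed 2-fold at all, 1.88% higher and 1.71% lower in naive T cells and 1.69% and 1.88% at 3 h.

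The sequence just upstream of the start site is shown for some of the members that were higher at 3 h and, last, for Tpi1, which was not. The choice does not represent all members. Aldoa and Pfkp, also higher, and Hk1 and Eno1, which were lower, are not shown. These are the 250 bases before the annotated start site from RefSeq's GRCm38.p6 models, 5′ to 3′ on the gene's strand. Capitals mark ACGTG or its reverse complement CACGT, the core letters of a hypoxia response element, and CACGTG, the E-box letters that Myc and Max are known to bind and that contain ACGTG.
Slc2a1 (chr4:119108495-119108744, plus strand): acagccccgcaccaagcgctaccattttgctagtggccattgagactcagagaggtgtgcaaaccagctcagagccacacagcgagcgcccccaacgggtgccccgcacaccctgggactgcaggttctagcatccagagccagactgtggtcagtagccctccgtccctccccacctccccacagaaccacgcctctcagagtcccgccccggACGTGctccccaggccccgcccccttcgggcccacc
Hk2 (chr6:82774455-82774704, minus strand): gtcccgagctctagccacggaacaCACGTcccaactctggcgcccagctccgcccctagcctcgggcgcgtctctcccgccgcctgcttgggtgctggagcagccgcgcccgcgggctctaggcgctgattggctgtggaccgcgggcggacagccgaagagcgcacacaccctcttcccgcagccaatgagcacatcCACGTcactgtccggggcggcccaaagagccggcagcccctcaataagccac
Pgk1 (chrX:106186850-106187099, plus strand): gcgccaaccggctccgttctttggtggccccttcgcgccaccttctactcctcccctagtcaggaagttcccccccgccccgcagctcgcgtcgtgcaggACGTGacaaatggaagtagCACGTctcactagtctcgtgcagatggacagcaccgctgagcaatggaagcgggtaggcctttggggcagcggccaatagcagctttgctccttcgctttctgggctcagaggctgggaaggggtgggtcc
Pgam1 (chr19:41911621-41911870, plus strand): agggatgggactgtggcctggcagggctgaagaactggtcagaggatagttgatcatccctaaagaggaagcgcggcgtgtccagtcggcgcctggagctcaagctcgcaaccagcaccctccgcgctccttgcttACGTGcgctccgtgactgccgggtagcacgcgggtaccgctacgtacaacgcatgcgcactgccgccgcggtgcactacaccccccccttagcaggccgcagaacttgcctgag
Ldha (chr7:46845554-46845803, plus strand): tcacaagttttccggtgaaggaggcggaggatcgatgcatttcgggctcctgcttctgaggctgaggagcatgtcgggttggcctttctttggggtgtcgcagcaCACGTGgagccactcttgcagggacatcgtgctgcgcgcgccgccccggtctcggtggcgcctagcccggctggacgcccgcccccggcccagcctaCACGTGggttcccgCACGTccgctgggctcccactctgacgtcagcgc
Tpi1 (chr6:124814159-124814408, minus strand): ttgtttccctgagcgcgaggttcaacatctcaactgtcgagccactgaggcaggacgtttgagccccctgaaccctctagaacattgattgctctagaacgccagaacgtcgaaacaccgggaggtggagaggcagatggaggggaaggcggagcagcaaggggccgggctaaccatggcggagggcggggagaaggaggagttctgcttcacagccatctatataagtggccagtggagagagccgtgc
All 10 members matched the promoter table, with 16 windows of 300 bases (250 before to 50 after a start site). ACGTG on either strand lay in a window of 7 of the 10 members against 21.8% of 27025 genes in the table. Counted by window, it lay in 8 of the members' 16 and in 19.6% of all windows. Of those 8, 2 are overlapping windows of Aldoa that hold the same site. The 7 members were Slc2a1, Hk1, Hk2, Aldoa, Pgk1, Pgam1 and Ldha. Pfkp, which was higher at 3 h, held none, and neither did Tpi1 or Eno1. Hk1, which was lower at 3 h, held 2, both after the start site. The share of G and C in the members' 16 windows ran from 51.3% (Hk1) to 69.0% (Eno1), against a median of 52.7% over all windows, and among all windows with 60 to 70% G and C the share with ACGTG was 27.3%. CACGTG lay in 1 member, Ldha, whose first window held it in 2 places, 145 and 48 bases before the start site; 8.09% of all genes held it. GGGCGG, the letters of a Sp1-type GC box, lay in windows of 9 of 10 members, and 38.2% of all genes held it, or 75.3% of windows with 60 to 70% G and C. AAAGGTCA, the monomer site that Nr4a receptors are known to bind, lay in 1 member, Eno1, in 1 of its 3 windows, and in 1.70% of all genes. A match of letters is a description of the window and was not tested for binding.

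Every value below is a log2 intensity, background-corrected and made comparable across the 4 arrays by quantile normalization, in which all arrays are given 1 distribution. A probe counted as detected where the scanner software called its spot well above background. Of the 26 probes, 22 were detected on all 4 arrays, 3 on some and 1, a Hk1 probe, on none. Where a probe was dim on an array, the lowest detected value of that array (3.07 to 3.45) stood in for it if its own was lower, and the difference is then a bound. A gene is represented by the probe with the highest mean. To judge the measurement, probes printed in 5 or more spots had a median SD of 0.11 to 0.13 within an array, which gives 0.16 to 0.18 for a difference of 2 arrays, while differences taken spot by spot had a median SD of 0.045 to 0.047. These figures cover the array and not the spread between cell preparations. The labels do not give the number of animals behind an array, and in RNA from many cells a larger share of responding cells and more RNA per cell cannot be told apart.

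The labels were checked against other genes. Between naive T and 3 h, all 6 early activation markers rose more than 2-fold in both genotypes (medians of 3.07 and 3.11). All 6 naive T cell markers fell, 5 of them more than 2-fold in WT and 6 in Nr4a-TKO. Ccr7 was the exception, at -0.40 in WT. Cd4 was detected on all arrays (11.56 and 11.60 in naive T cells, 10.55 and 10.06 at 3 h, WT first). For the targeted genes, the single Nr4a1 probe read 7.04 on the WT and 8.38 on the Nr4a-TKO naive T array, and 11.33 and 11.82 at 3 h. The Nr4a2 probes were also higher on the Nr4a-TKO arrays, at 5.96 against 5.19 and 6.44 against 6.24 in naive T cells, and by 1.36 and 1.37 at 3 h. Of 3 Nr4a3 probes, 2 were lower on the Nr4a-TKO array at 3 h, by -1.86 and -1.47, and the other was 0.18 higher; on the naive T arrays they read 4.27, 7.75 and 6.87 in WT and 4.36, 7.36 and 6.90 in Nr4a-TKO. Where these probes lie relative to the deleted exons is not known here, so they do not check the labels for Nr4a1 and Nr4a2, and each genotype direction below rests on the label of its array. All 4 B cell markers in the list were detected on all arrays, with summed intensities of 600 and 681 in naive T cells and 332 and 479 at 3 h (WT first). Their part in the results was not tested. Summed myeloid markers ranged from 34600 to 39700, a sum set almost wholly by the Itgam probe at 14.98 to 15.14 on all 4 arrays, and CD8 markers from 74.3 to 141. Cd79a was 1.14 higher on the Nr4a-TKO than on the WT array at 3 h, and Cd14 read 6.66 on the WT naive T array and 3.77 to 4.58 on the other arrays.

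**Figure D1:**
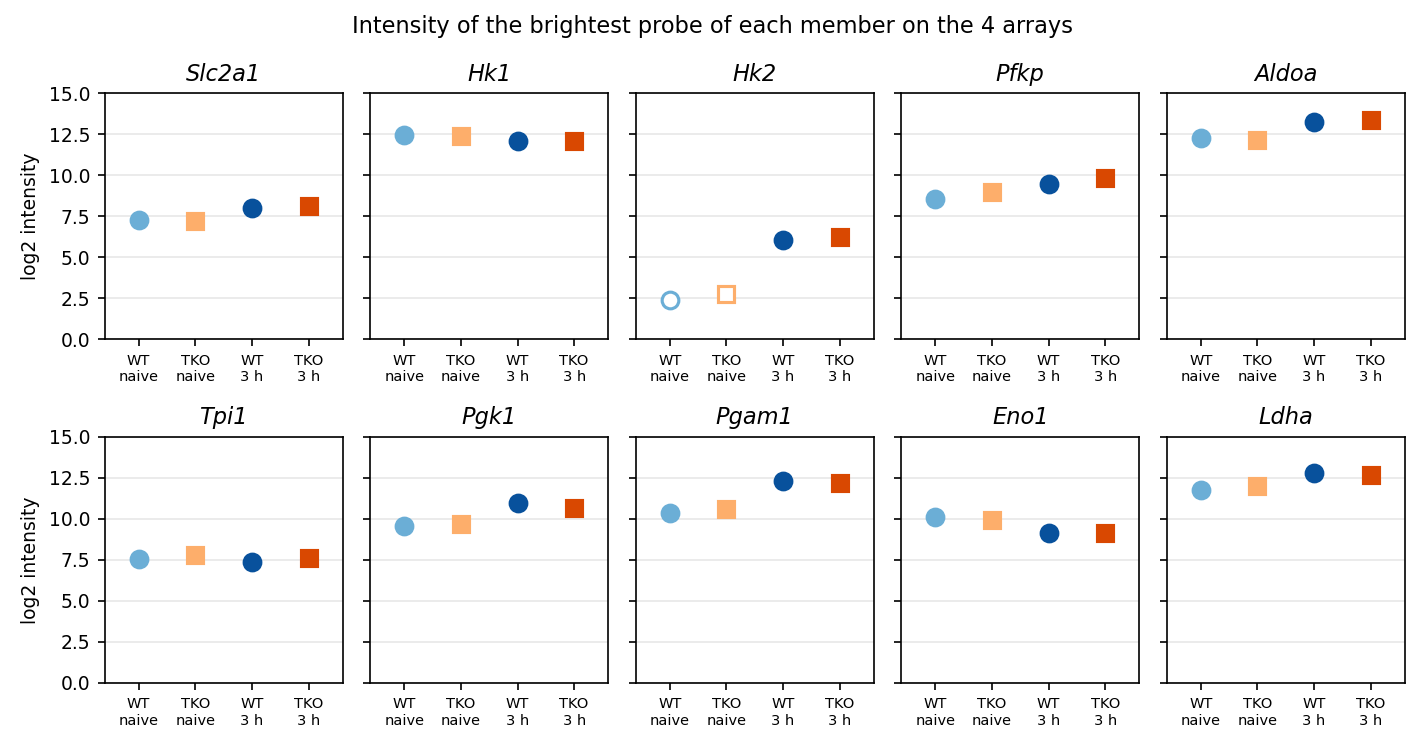
Log2 intensity of the brightest probe of each of the 10 members (vertical axis) on the 4 arrays (horizontal axis, 1 array per group; TKO stands for Nr4a-TKO). Filled points were well above background and open points were not. Hk2 is open in both naive T samples, at 2.40 and 2.77, and filled at 3 h; Tpi1 stays between 7.38 and 7.78. Heights of different genes are not comparable, since each probe has its own brightness.

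Uptake and trapping of glucose come first. Slc2a1 was read by 1 probe, which lies at chr4:118809864-118809923 (mm9, plus strand), 2501 bases into its transcript. Its log2 intensity was 7.27 on the WT naive T array, 7.20 on the Nr4a-TKO naive T array, 8.02 on the WT iTreg 3 h array and 8.14 on the Nr4a-TKO iTreg 3 h array. Both 3 h arrays were above both naive arrays. The change was 0.75 in WT (1.68-fold) and 0.94 in Nr4a-TKO (1.92-fold), under 2-fold in both, and 12.7% of all genes tested changed at least as much upward in WT.

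Hk2, the hexokinase isozyme known to be induced in growing cells, had the largest change of the members on the scale used here. It was also read by 1 probe, 5416 bases into its transcript at chr6:82675056-82675115 (mm9, minus strand). Its log2 intensity was 2.40 on the WT and 2.77 on the Nr4a-TKO naive T array, not well above background on either, and 6.07 and 6.23 at 3 h. It was thus detected on both arrays after culture and on neither before. Against the lowest detected value, Hk2 rose at least 6.15-fold in WT (log2 change of 2.62) and at least 7.29-fold in Nr4a-TKO (2.87). In WT, 0.583% of genes had a change as high. With an offset of 50 added to every background-corrected intensity, which pulls dim probes together, the WT change was 0.94, under 2-fold, and without background correction it was 1.48; Pgam1, described further on, then had the larger WT change, 1.92 and 1.95.

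Hk1, the constitutive hexokinase, had 5 probes that did not tell 1 story. These are the first 30 bases of 4 of the probes and of the Hk2 and Slc2a1 probes, shown because the result depends on which stretch of the gene a probe reads; capitals mark AATAAA, the letters of a polyadenylation signal, and coordinates are mm9.
Hk1 brightest probe (chr10:61731230-61731288, minus strand): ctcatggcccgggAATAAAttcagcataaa
Hk1 second probe (chr10:61731856-61731915, minus strand): ggaatctcccatcgctttagtgagccattg
Hk1 further probe (chr10:61759854-61759913, minus strand): aatacaaaatgtaatgtccaatctaagtcc
Hk1 dim probe (chr10:61778284-61815852, minus strand): ctgtagatgttgaaccaaaaatacgacccc
Hk2 probe (chr6:82675056-82675115, minus strand): tagtgagcgttttgtcatcatgtacagtag
Slc2a1 probe (chr4:118809864-118809923, plus strand): acccacttgtaaatacaccaacaaactcct
The brightest Hk1 probe, 4126 bases into its transcript record, read 12.49 and 12.40 on the naive T arrays (WT first) and 12.09 and 12.10 at 3 h. It was lower at 3 h by -0.40 in WT and -0.30 in Nr4a-TKO. The second probe lies upstream of it in the same direction of transcription and read 9.99 and 9.80 in naive T cells (WT first) and 8.10 and 8.50 at 3 h. Its signal fell 3.71-fold in WT (log2 change of -1.89) and 2.46-fold in Nr4a-TKO (-1.30). A further probe, matched to a different transcript, read 8.81 and 8.63 and then 7.35 and 7.60, changes of -1.46 and -1.03. All 3 Hk1 probes detected on 4 arrays were thus lower at 3 h, and 2 of them by more than 2-fold. The dim probe spans 37569 bases of genome and so crosses an intron. It was well above background only on the Nr4a-TKO naive T array, at 4.62. That was 1.17 higher than on the WT naive T array, a bound past 2-fold.

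Among the enzymes of the middle steps, Pfkp and Aldoa were higher at 3 h and Tpi1 was not. The probe that represents Pfkp read 8.55 and 8.96 on the naive T arrays (WT first) and 9.49 and 9.87 at 3 h. Its changes were 0.94 (1.91-fold) and 0.91 (1.87-fold). Each of the 5 Pfkp probes was higher at 3 h in both genotypes, from 0.40 to 1.18 in WT and from 0.14 to 1.07 in Nr4a-TKO, and 1 of them passed 2-fold in each. The WT value of the dimmest probe is a bound, since its WT naive T spot was not well above background. With 75th-percentile scaling the representative probe passed 2-fold in both genotypes (1.14 and 1.15).

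Aldoa was read by 1 probe, at 12.26 on the WT and 12.16 on the Nr4a-TKO naive T array and at 13.28 and 13.36 at 3 h. It rose 2.02-fold in WT (log2 change of 1.02) and 2.30-fold in Nr4a-TKO (1.20). Its WT value sat at the threshold, and 8.10% of all genes had a change at least as high.

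Tpi1 read 7.54 and 7.78 on the naive T arrays (WT first) and 7.38 and 7.65 at 3 h, changes of -0.15 and -0.14. Its 4 probes all lay between -0.53 and -0.14 in WT and between -0.17 and 0.01 in Nr4a-TKO. The isomerase was the member closest to its naive level in both genotypes.

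Among the enzymes of the steps that follow Gapdh, Pgk1 and Pgam1 were higher at 3 h and Eno1 was lower. Pgk1, the first ATP-making step, read 9.56 and 9.68 on the naive T arrays (WT first) and 10.99 and 10.67 at 3 h. It rose 2.68-fold in WT (log2 change of 1.42), and its Nr4a-TKO change of 0.99 (1.99-fold) fell just short of 2-fold. The second Pgk1 probe, designed on an expressed sequence tag, read 6.85 and 6.70 and then 8.19 and 7.97, a rise of 1.34 in WT and 1.27 in Nr4a-TKO. This probe is listed on the minus strand at chrX:103398776-103398835 (mm9), opposite to the gene and close to the first probe, so it may read another strand than the Pgk1 mRNA.

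Pgam1, which moves the phosphate of 3-phosphoglycerate, had the largest change among members detected on all 4 arrays, and it is the member measured most precisely, with 10 spots of 1 probe. Those 10 spots averaged 10.36 ± 0.09 on the WT naive T array, 10.59 ± 0.14 on the Nr4a-TKO naive T array, 12.32 ± 0.11 on the WT iTreg 3 h array and 12.18 ± 0.12 on the Nr4a-TKO iTreg 3 h array (SD over 10 spots of 1 array). The lowest spot at 3 h, 12.01, was far above the highest naive spot, 10.82. Spot by spot the rise was 1.96 ± 0.05 in WT (3.90-fold) and 1.59 ± 0.04 in Nr4a-TKO (3.01-fold). The second probe gave 1.77 and 1.51. In WT, 1.77% of genes had a change at least as high as that of the first probe.

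Eno1 read 10.09 and 9.90 on the naive T arrays (WT first) and 9.16 on both arrays at 3 h. Its changes were -0.93 (1.91-fold lower) and -0.75 (1.68-fold lower). All 3 Eno1 probes were lower at 3 h in both genotypes, from -0.93 to -0.27 in WT and from -0.95 to -0.49 in Nr4a-TKO, and none passed 2-fold. Of these probes, 1 is also listed for a transcript of the related gene Eno1b.

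Ldha, the last step, was read by 2 probes that moved alike. The first read 11.74 and 11.98 on the naive T arrays (WT first) and 12.79 and 12.68 at 3 h, and the second, 351 bases into the transcript, read 6.99 and 7.16 and then 8.15 and 7.90. The first rose 2.08-fold in WT (log2 change of 1.06) and its Nr4a-TKO change was 0.70 (1.62-fold). The second gave 1.17 and 0.74. Both probes passed 2-fold in WT, and neither did in Nr4a-TKO.

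**Figure D2:**
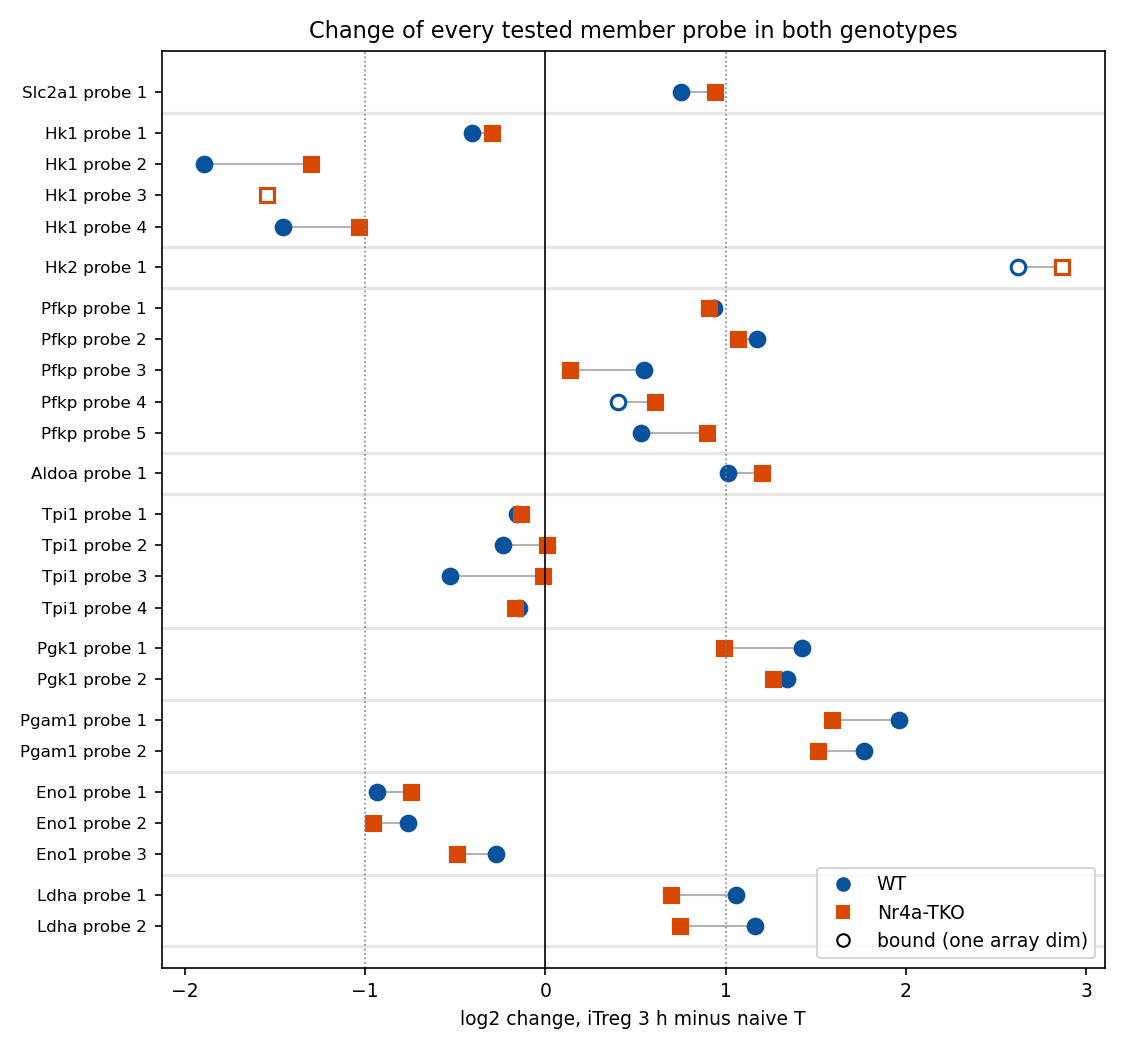
Log2 change from naive T to iTreg 3 h (horizontal axis) of each of the 25 member probes that could be compared, grouped by gene with the representative probe first. Circles are WT and squares are Nr4a-TKO, open symbols are bounds, and dotted lines mark 2-fold. Probes of Pgam1, Pgk1 and Ldha lie together on the right, those of Eno1 and Hk1 on the left, and the Hk1 probes spread from -1.89 to -0.30.

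Counted over the members, 5 of 10 rose more than 2-fold in WT (Hk2, Pgam1, Pgk1, Ldha and Aldoa) and 0 fell, beside 8.31% of 26428 genes tested that were more than 2-fold higher and 8.16% lower. On the Nr4a-TKO arrays 3 of 10 rose (Hk2, Pgam1 and Aldoa) and 0 fell, beside 7.54% of 26977 genes higher and 7.71% lower. Pgk1 and Ldha make up the difference between the counts, and Pgk1 missed by 0.01. The median change of the members was 0.98 in WT and 0.92 in Nr4a-TKO, where the median of all genes was -0.05 and -0.02. With values scaled to the 75th percentile, 6 members rose in each genotype.

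The next question was whether the arrays labelled Nr4a-TKO and WT differed. In naive T cells, the 9 members that could be compared lay between -0.18 and 0.41 (Nr4a-TKO minus WT, log2), with a median of 0.12. The count past 2-fold was 0 of 9 in either direction, beside 1.88% of 26265 genes higher and 1.71% lower on the Nr4a-TKO array. At 3 h the 10 members lay between -0.32 and 0.38 with a median of 0.05, and again 0 of 10 passed 2-fold, beside 1.69% of 26734 genes higher and 1.88% lower. Pfkp was above zero at both times, by 0.41 and 0.38, and its 5 probes were above zero in 9 of 10 comparisons. Tpi1 was higher on the Nr4a-TKO arrays by 0.24 and 0.26. Both Pfkp values lay beyond 2 SD of a difference from repeated spots within arrays (0.33 in naive T cells and 0.37 at 3 h). That SD leaves out the spread between cell preparations. Of all genes, 9.47% were at least as high as Pfkp in naive T cells and 11.1% at 3 h.

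The brightest probes of Pgk1, Pgam1 and Ldha shared another pattern. Each read higher on the Nr4a-TKO array in naive T cells, by 0.12, 0.23 and 0.25, and lower on it at 3 h, by -0.32, -0.14 and -0.11. All 6 values lie within 2 SD of a difference from repeated spots within arrays (0.33 in naive T cells and 0.37 at 3 h). Of the second probes, only that of Ldha crossed zero in the same way (0.17 and -0.25), while that of Pgk1 was below zero at both times (-0.15 and -0.22) and that of Pgam1 above it (0.29 and 0.04). The Nr4a-TKO change minus the WT change was -0.43 for Pgk1, -0.37 for Pgam1 and -0.36 for Ldha, and ran from -0.03 (Pfkp) to 0.19 (Slc2a1) for the other 6 detected on all 4 arrays. For Hk2 no value is given, since both of its changes are bounds. Among all genes, 21.4% had a difference of changes at least as large as that of Pgk1. The second probes gave 1.51 against 1.77 for Pgam1 and 0.74 against 1.17 for Ldha, smaller in Nr4a-TKO both times. That of Pgk1, listed on the strand opposite to the gene, gave nearly equal changes, 1.27 against 1.34. With 1 array per group these differences could not be tested.

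**Figure D3:**
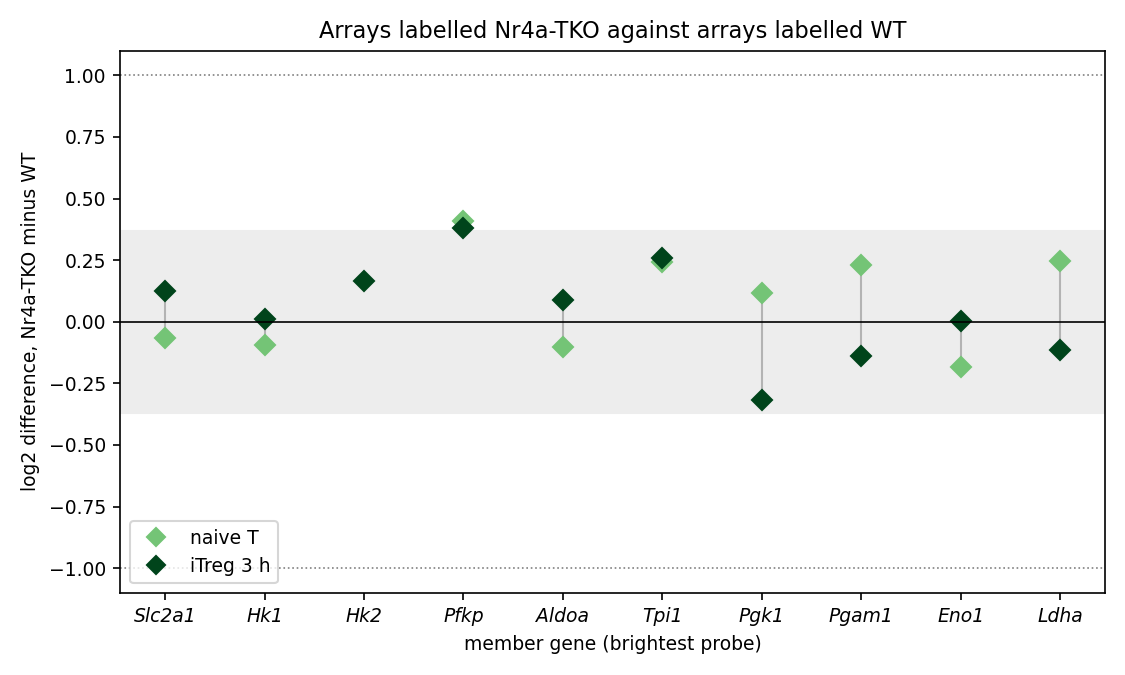
Log2 difference between the arrays labelled Nr4a-TKO and WT (vertical axis, Nr4a-TKO minus WT) for each member's brightest probe (horizontal axis) in naive T cells (light) and at 3 h (dark). The shaded band is 0.37 either side of zero, 2 SD of a difference from repeated spots within arrays, and dotted lines mark 2-fold. Hk2 has no naive T point because it was dim on both arrays. All points lie far inside 2-fold, the Pfkp points alone lie outside the band, and Pgk1, Pgam1 and Ldha pass from above to below zero.

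The other genes of glucose metabolism were read from 8 lists with 82 entries in all. In WT, 12 of the 77 that could be compared rose more than 2-fold and 6 fell, beside 8.31% and 8.16% of all genes. In Nr4a-TKO, 10 of 80 rose and 6 fell, beside 7.54% and 7.71%. The counts that fell are thus close to the shares of all genes. Of the other glycolysis enzymes and isozymes, 0 of 17 rose in WT and 2 fell, and their median change was -0.16. Gapdh (0.52) and Pkm (0.50), the constitutive enzymes on either side of the Pgk1 to Eno1 steps, were higher by less than 2-fold, and Gpi1 was at -0.16. Ldhb, the isozyme that favours lactate oxidation, fell more than 2-fold (changes of -1.34 and -1.69, WT first), although its second probe gave -0.30 and -0.55. Bpgm, which makes 2,3-bisphosphoglycerate, was at -1.07 in WT cells and -0.42 in Nr4a-TKO cells.

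Transport and control of the pathway held the most extreme values of these lists apart from Irf4. Slc16a1 (MCT1), which exports lactate, rose 5.62-fold in WT (log2 change of 2.49) and 5.57-fold in Nr4a-TKO (2.48). Slc2a3 (GLUT3), the other main glucose transporter of T cells, was at -1.14 and -0.88 (WT first), and 1 of its 2 probes passed 2-fold in WT. The Slc2a6 probe passed 2-fold in Nr4a-TKO only as a bound (1.23), and its 3 probes disagreed in sign. Txnip, which restrains glucose uptake, read 9.67 and 9.46 in naive T cells (WT first) and 5.62 and 6.14 at 3 h. The changes were -4.05 and -3.33, the lowest of all the lists, and its second probe gave -4.03 and -3.14. Pdk1, a kinase that switches off pyruvate dehydrogenase, fell as well (-2.20 and -1.67), with all 5 of its probes past 2-fold. Pfkfb2, which makes an activator of phosphofructokinase, was at -1.18 and -1.45, with 1 of its 3 probes near zero in WT.

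Past pyruvate, the 7 genes of entry into mitochondria had median changes of 0.63 and 0.61 (WT first) and the 16 of the citric acid cycle 0.38 and 0.39. Dlat, a subunit of pyruvate dehydrogenase, was at 1.38 and 0.61 (WT first), and Mpc1, a mitochondrial pyruvate carrier, was at 0.63 and 1.07. Of their probes, 1 of 2 passed 2-fold in WT for Dlat and 1 of 3 in Nr4a-TKO for Mpc1, whose lowest gave -0.06. In the citric acid cycle 4 of 16 rose in WT (Idh3a, Suclg2, Sucla2 and Fh1), 2 of 16 rose in Nr4a-TKO (Idh3a and Fh1), and 0 fell. Idh3a led with 1.75 and 1.44. Idh3a and Fh1 were read by 1 probe each; in WT 1 of 2 Sucla2 probes passed 2-fold, as did 1 of 5 for Suclg2, whose lowest gave -0.13. In the pentose phosphate pathway Rpia was at 1.45 and 1.02 and Tkt at 1.03 and 0.90, with 1 of 2 and 1 of 3 probes past 2-fold in WT. Of the gluconeogenesis list, 5 of 7 could be compared, and Pck2 alone passed 2-fold, at 1.81 against 0.59, with 1 of its 2 probes.

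Of the transcription factors known to act on glycolysis genes, 3 rose in each genotype. Myc read 10.13 and 10.02 in naive T cells (WT first) and 12.50 and 11.84 at 3 h, changes of 2.36 and 1.82. Hif1a rose by 1.53 and 1.02, and its 3 probes all passed 2-fold in both genotypes. Irf4 had the largest change of the lists, 6.34 and 5.21, and on the naive T arrays it was 1.25 higher in Nr4a-TKO. Max, the partner of Myc, was at -0.30 and -0.37, Arnt, the partner of Hif1a, at -0.38 and -0.72, Mlxip at 0.96 and 0.32, and Mlxipl at -0.30 and -0.32. At 3 h Myc was lower on the Nr4a-TKO array by -0.66, the same array on which the brightest probes of Pgk1, Pgam1 and Ldha read lower; whether these values are related was not tested.

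**Figure D4:**
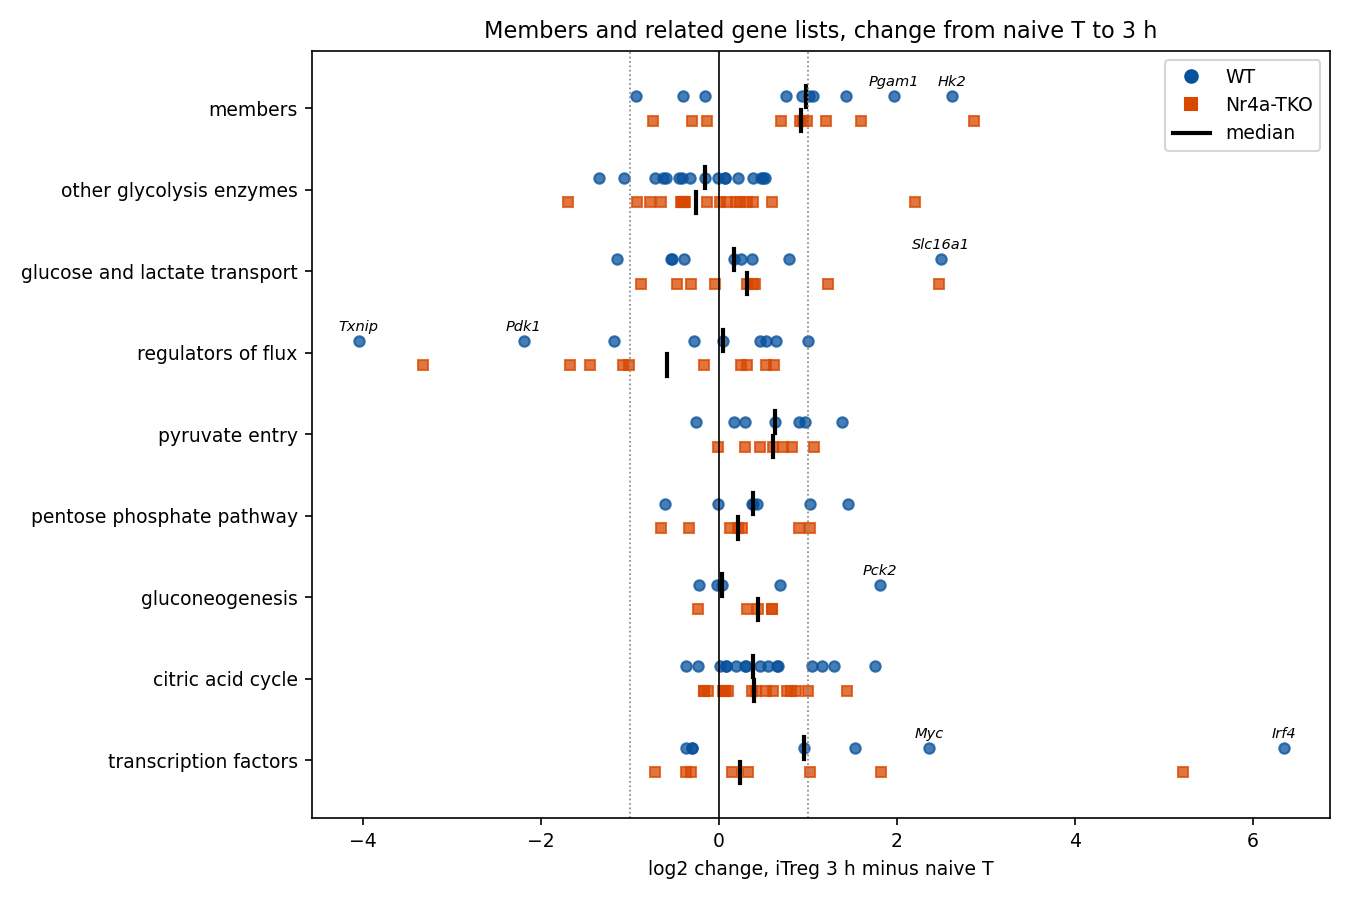
Log2 change from naive T to iTreg 3 h (horizontal axis) of the members and of each gene of the 8 lists (rows), in WT (circles) and Nr4a-TKO (squares), with a black bar at each median and dotted lines at 2-fold. Hk2 and a few other dim genes are shown at their bound. The members' medians, 0.98 and 0.92, lie to the right of those of the other glycolysis enzymes, -0.16 and -0.26, and Txnip and Irf4 stand at the ends.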

How the data were processed

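RNA from 4 groups, with 1 array each, had been hybridised to single-colour Agilent mouse arrays on 1 slide. The authors deposited spot intensity values from Agilent Feature Extraction 11.5.1.1, and a value table that, tested here, equals the log2 of the deposited processed intensity minus a constant of each array, with column medians of -2.16 to -2.33. Per the study's methods the authors used RMA, so the mean spot intensity was here corrected with normexp (offset 0, local median background) and quantile-normalized in limma 3.58.1 (R 4.3.3); summaries used Python 3.11.15. Control spots and outlier spots (115 to 160 an array) were left out, and no spot was saturated. Differences are thus relative to an equal distribution on each array. Probes were well above background at 65.0 to 67.7%.

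The members, lists, markers and motifs were chosen with earlier results of these data known. The text names all members, list genes past 2-fold, and the transcription factors. A difference counted if past 2-fold; no test was possible. In a check on simulated data for WT naive T to iTreg 3 h (24877 genes, 200 changed), 97.0% of changes were recovered. The planted changes were all well past 2-fold, in genes well above background, with noise set near the spread of repeated spots. High recovery followed from these settings. The check does not cover values near 2-fold, dim probes, normalization or the spread between cell preparations. Names are those of the array design; 17 of 26 member probes carried a current RefSeq transcript. The array count limits precision. Alternatives changed scaling, background, probe choice, dim-probe filter, summary and threshold.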

Additional observations from a re-analysis of the deposited data

Results flagged for a closer look

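Between the arrays labelled Nr4a-TKO and WT, 3 members lay on opposite sides of zero in naive T cells and at 3 h, by more than 2 SD of spot-by-spot differences each time: Pgk1 (0.12 and -0.32, log2), Pgam1 (0.23 and -0.14) and Ldha (0.25 and -0.11). All 6 values lie within 2 SD of a difference from repeated spots within arrays (0.33 and 0.37), and of the second probes only that of Ldha changed sign; with the mean of all probes, Pgk1 was at -0.01 in naive T cells. The difference between the times was not tested, and 21.9% of 24926 genes did the same. Higher on the Nr4a-TKO array in naive T cells and lower at 3 h, likewise untested, were Dlat (0.32 and -0.46), Hif1a (0.36 and -0.15), Idh3a (0.17 and -0.15), Ldhb (0.12 and -0.24), Pck2 (0.83 and -0.39), Pdk2 (0.33 and -0.40), Pfkfb4 (0.59 and -0.54, both bounds), Rpia (0.31 and -0.12) and Suclg2 (0.76 and -0.43). The opposite order was seen for Mpc1 (-0.29 and 0.15) and Txnip (-0.21 and 0.51). In the change from naive T to 3 h, 0 members went opposite ways in the 2 genotypes, against 12.4% of all genes.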

How the results depend on the processing

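No call of a member past 2-fold changed sign in the 9 settings. In Nr4a-TKO the count of members past 2-fold was 6 with 75th-percentile scaling and 6 with the value table, which moved the median change to 1.11, and 5 with the mean of all probes, Hk1 then being lower. At 1.5-fold the counts were 8 and 8 (WT and Nr4a-TKO), 7 higher and Eno1 lower (-0.93 and -0.75) in each, beside 16.8% of all genes higher and 17.0% lower in WT and 15.9% and 16.6% in Nr4a-TKO. At 3-fold 2 were higher in WT, beside 3.24%. Hk2, a dim gene, ranged from 0.94 to 3.67 in WT, and Hk1 from -1.89 (RefSeq-named probe only) to -0.25. The smaller change in Nr4a-TKO held in all 9 settings for Pgk1 (-0.43 to -0.25), Pgam1 (-0.37 to -0.30) and Ldha (-0.39 to -0.28), settings added after the data were seen. Of the list genes, those past 2-fold numbered 8 in each genotype with an offset of 50, 9 in Nr4a-TKO without background correction and 11 in WT with the mean of probes. Between genotypes they numbered 0 at 3 h with an offset of 50 and 0 when all 4 arrays had to be detected, and in naive T cells 2 with the mean of probes, 2 without a filter and 0 with an offset of 50. The cause was not tested. No paired analysis was possible because each group has 1 array.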
